A study of Mus musculus with 16 samples.

Results

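The retinoid and vitamin D receptor axis was followed here through 7 genes in hair follicle stem cell (HFSC) organoids: the retinoic acid receptors Rarg and Rara, the retinoid X receptors Rxra and Rxrb, the vitamin D receptor Vdr, the retinoic acid carrier Crabp2 and the retinaldehyde reductase Dhrs3. The 7 genes were chosen by name from the genes listed in the deposited comparison of translation, so readouts of these libraries were involved in their choice, and they were among 22612 genes in the count tables. Each gene was represented by the transcript with the most ribosome footprints over the 8 Ribo-seq libraries, and all 7 reached the required 10 footprints, as did 35.3% of all genes. Crabp2, with 13 footprints, lay closest above that threshold, and Vdr had the most at 209. No gene of the 7 fell below it.

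The cells came from the epidermis of C57BL/6J mice and were grown for 2 weeks as 3D–3C organoids, a Matrigel culture in which HFSCs and their progeny reach a balance. Integrin α6+ cells without CD34 (progenitors) and with CD34 (HFSCs) were sorted from cultures that were left untreated or received the acetylated polyamine N1-acetylspermidine (N1-AcSpd) over the final 72 h, at a concentration the labels do not state. Each of the 4 groups was profiled by RNA-seq and by Ribo-seq of ribosome-protected fragments from the same lysate, with 2 libraries per assay, 1 from each of 2 donor mice, giving 16 libraries. No allele or transgene was involved, the mice's ages are not given in the labels, and the culture medium held hydrocortisone, insulin, epidermal growth factor and serum in every group. The question was which of these genes differed in message or in footprints between the cell types and with N1-AcSpd.

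Retinoic acid enters the nucleus on carriers such as CRABP2 and binds retinoic acid receptors, which pair with a retinoid X receptor on DNA and switch between corepressors and coactivators when the ligand arrives. The vitamin D receptor also pairs with a retinoid X receptor, and in skin it is needed for the hair cycle after the first coat even where its ligand is lacking. DHRS3 reduces retinaldehyde back to retinol and so limits how much retinoic acid a cell can make. In epidermis, retinoids alter keratinocyte differentiation and RARG is the main retinoic acid receptor.

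To show the regulatory sequence beside the 2 most heavily read receptor messages and beside the enzyme gene that differed between cell types, the bases before the start of Rarg, Vdr and Dhrs3 were taken from the RefSeq assembly GRCm38.p6. Nuclear receptor half-sites were searched on both strands. They were the hexamer AGGTCA, its variant with G in the first place (GGGTCA), the hexamer AGTTCA and its own variant with G in the first place (GGTTCA). Capitals mark a match. The Rarg window is chr15:102257523-102257772 and the Vdr window chr15:97908311-97908546, both on the minus strand, the latter ending 14 bases before the RefSeq start so as to leave out bases that the kept transcript covers. The Dhrs3 window is chr4:144892577-144892826 on the plus strand, before a RefSeq start 250 bases upstream of the start of the kept transcript. Directly before the kept start, the window chr4:144892827-144893076 is not shown and also held none of the 4 hexamers.
Rarg: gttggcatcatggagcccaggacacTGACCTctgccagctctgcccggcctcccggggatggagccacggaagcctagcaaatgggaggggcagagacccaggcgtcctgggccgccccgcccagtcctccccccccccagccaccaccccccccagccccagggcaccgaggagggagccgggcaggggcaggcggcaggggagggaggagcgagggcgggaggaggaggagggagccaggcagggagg
Vdr: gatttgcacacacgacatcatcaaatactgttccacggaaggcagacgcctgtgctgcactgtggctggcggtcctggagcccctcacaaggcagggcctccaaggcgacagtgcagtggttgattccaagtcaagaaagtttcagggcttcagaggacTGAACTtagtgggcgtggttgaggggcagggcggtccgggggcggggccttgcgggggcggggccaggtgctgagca
Dhrs3: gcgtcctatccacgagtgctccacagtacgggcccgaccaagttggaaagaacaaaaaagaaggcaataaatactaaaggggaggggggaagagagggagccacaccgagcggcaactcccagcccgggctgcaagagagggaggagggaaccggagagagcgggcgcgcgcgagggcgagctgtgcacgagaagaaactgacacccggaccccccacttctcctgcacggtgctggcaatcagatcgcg
The Rarg window held AGGTCA on its minus strand, 225 to 220 bases before the RefSeq start, and the Vdr window held AGTTCA on its minus strand, 91 to 86 bases before the RefSeq start. The Dhrs3 window held none of the 4 hexamers. Among 32851 promoter windows of 250 bases, 14.0% held AGGTCA, 11.8% held AGTTCA and 38.6% held any of the 4, so such matches are common. Pairs of half-sites in direct repeat with 1 to 5 bases between them, the spacing on which these receptors bind as dimers, were found in none of the 14 windows that RefSeq gives for 6 of the 7 genes, and in at most 0.174% of all windows for any one spacing. No window was at hand for Crabp2.

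RNA-seq libraries held 21612795 to 31524062 counts and Ribo-seq libraries 34475 to 268052, so a footprint count of 0 in one library allows 12.1 to 75.0 CPM (counts on a library scale of 1e6) for that gene. These intervals and floors cover counting error only, since reads were not collapsed by molecular identifiers. Levels are given as CPM of library totals scaled by trimmed mean of M values (TMM), and differences as edgeR log2 fold changes with standard errors (SE) and Benjamini-Hochberg adjusted P values over all genes tested. Sorting held in the RNA: Cd34 was higher in HFSCs by 4.53 on the log2 scale (SE 0.25, adjusted P = 2.06e-04), and the keratins Krt5 and Krt14 together made 32773 to 39309 CPM in every library. Of other cell types, the fibroblast, melanocyte, immune, endothelial and Merkel cell lists summed to at most 10.3 CPM, with Lum, Cd207, Cdh5 and Atoh1 at 0 counts. The 2 treated HFSC RNA-seq libraries ran against their replicate numbers: the difference between replicate 2 and replicate 1 over genes correlated at 0.352 to 0.591 among the other 3 groups and at -0.572 to -0.395 between each of them and treated HFSCs. RNA-seq differences given for single genes in untreated cultures, and with N1-AcSpd in progenitors, come from a fit that holds these libraries and are therefore also given without them.

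On the kept transcripts, Rarg was the most abundant of the 7 messages and varied least. Per kilobase of transcript its RNA level was above that of Rxra, the next, in 8 of 8 libraries and 1.98 times as high on average. Below Rarg the order by mean level per kilobase was Rxra, Vdr, Rxrb, Crabp2, Rara and Dhrs3. Several neighbours in it were not separated: Rxra was above Vdr in 6 of 8 libraries, Vdr above Rxrb in 5, Rxrb above Crabp2 in 7 and Crabp2 above Rara in 4, while Rara was above Dhrs3 in 8. The lead of Rarg holds for the kept transcripts: these had 32526 counts for Rarg and 27201 for Rxra over the 8 libraries, whereas sums over all transcripts of a gene gave 80012 and 120193. The sums run over 3 transcripts of Rarg and 5 of Rxra, of which 2 had equal counts. They may hold the same reads more than once, so they do not show which gene had more message.

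Rarg (ENSMUST00000043172, chr15:102234938-102257517, minus strand, 10 exons, GRCm38) encodes the retinoic acid receptor γ. Its RNA level was 164 and 161 CPM in untreated progenitors, 169 and 170 in untreated HFSCs, 145 and 145 in treated progenitors and 158 and 156 in treated HFSCs. All 4 treated libraries were below all 4 untreated ones, the case for 1 of the 7 genes and, in either direction, for 7.84% of all genes. The differences with N1-AcSpd were nevertheless small, at -0.17 (SE 0.09) in progenitors and -0.11 (SE 0.09) in HFSCs on the log2 scale, with edgeR adjusted P values of 0.671 and 0.834. Without the treated HFSC libraries the value in progenitors was -0.16 (adjusted P = 0.681). Between cell types, averaged over treatment, the difference was 0.09 (SE 0.06), and its 95% interval of -0.05 to 0.23 holds no difference above 1.17-fold. Over the 8 libraries its coefficient of variation was 6.16%, above that of 10.8% of genes.

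Rara (ENSMUST00000068133, chr11:98937718-98974942, plus strand), the retinoic acid receptor α gene, had 18.6 and 19.6 CPM in untreated progenitors and 18.2 and 23.8 in untreated HFSCs. Treated progenitors had 16.3 and 21.7 CPM and treated HFSCs 20.6 and 16.9. The groups overlapped in every comparison. Per kilobase, the kept Rarg transcript exceeded that of Rara in each library by 7.64 to 10.7 times, with a median of 9.76. The Rara transcript was 1 of 4 tied in footprints and in RNA-seq counts. Sums over all transcripts, 3 for Rarg and 5 for Rara, moved the counts from 32526 to 80012 for Rarg and from 3950 to 19530 for Rara. These sums may hold the same reads more than once, so they do not measure the size of the lead. Rarb, the third retinoic acid receptor gene, had 3 counts in all 8 RNA-seq libraries.

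Of the retinoid X receptors, which serve as partners to both other receptor kinds, Rxra (ENSMUST00000077257, chr2:27677201-27762957, plus strand) had 123 and 125 CPM in untreated progenitors and 130 and 149 in untreated HFSCs. With N1-AcSpd its level was 144 and 121 CPM in progenitors and 127 and 142 in HFSCs. The untreated groups were apart and the treated ones overlapped. Rxrb (ENSMUST00000116612, chr17:34032401-34038393, plus strand) had 48.4 and 48.8 CPM in untreated progenitors and 48.9 and 57.9 in untreated HFSCs, then 40.0 and 52.0 in treated progenitors and 51.6 and 46.7 in treated HFSCs. Its untreated groups were separated by the smallest of margins. Per kilobase Rxra exceeded Rxrb in all 8 libraries by 1.09 to 1.68 times. Averaged over treatment, the log2 difference between HFSCs and progenitors was 0.10 (SE 0.09) for Rxra and 0.12 (SE 0.10) for Rxrb, and the 95% intervals reach at most 1.22-fold and 1.27-fold. For Rara the same value was 0.05 (SE 0.14), with an interval that reaches 1.29-fold. Rxrg, the third gene of the kind, had 5 RNA-seq counts in all.

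**Figure D1:**
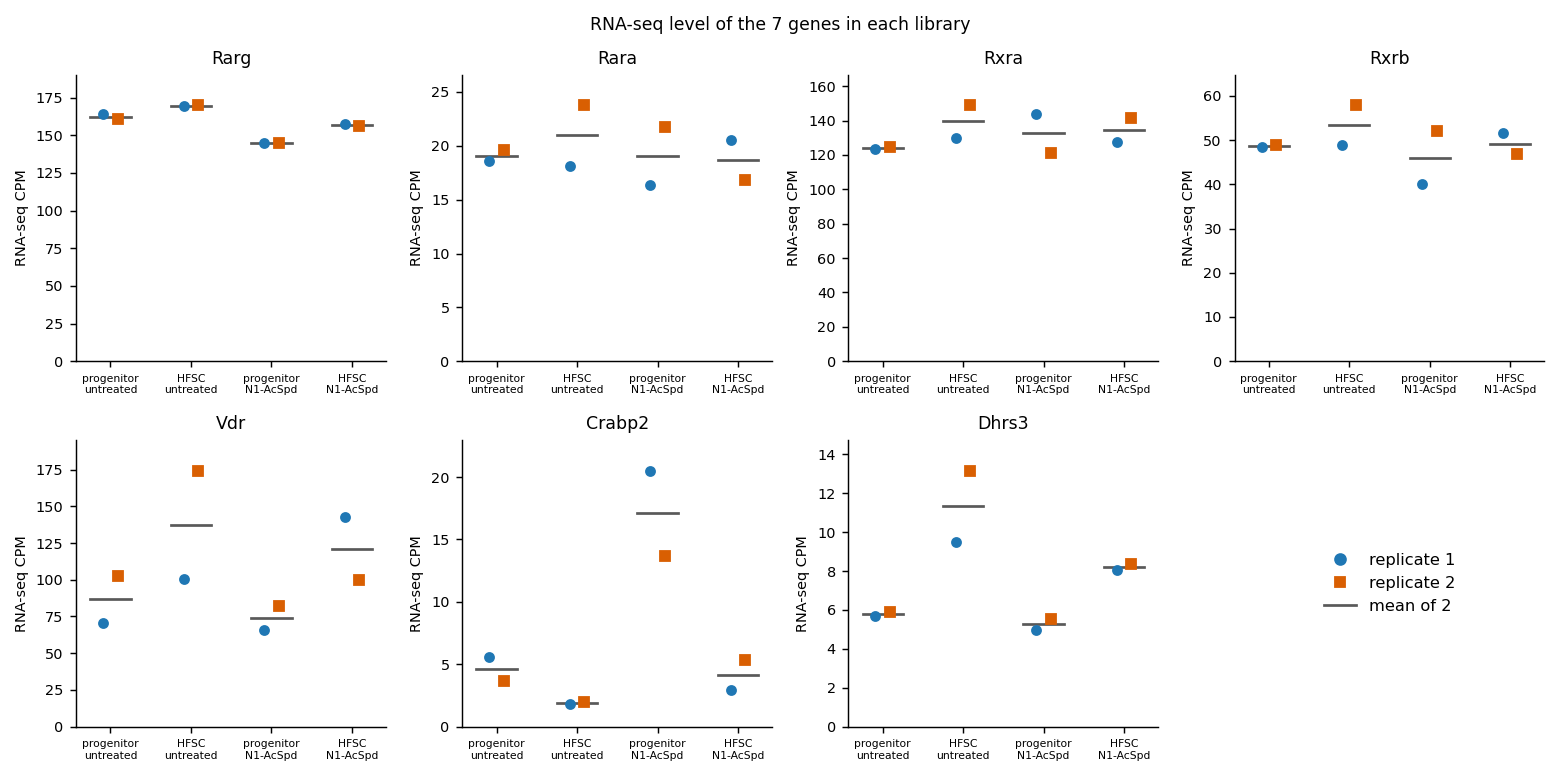
RNA-seq level in CPM (vertical axis, from 0) of each of the 7 genes in the 4 groups (horizontal axis), with circles for replicate 1, squares for replicate 2 and a bar for the mean of the 2. Rarg stays between 145 and 170 CPM, whereas Crabp2 runs from 1.77 to 20.5 CPM and is highest in treated progenitors.

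Vdr (ENSMUST00000023119, chr15:97854425-97908310, minus strand), whose product binds the active form of vitamin D, had 70.8 and 103 CPM in untreated progenitors and 101 and 174 in untreated HFSCs. Treated progenitors had 65.5 and 81.8 CPM and treated HFSCs 143 and 99.5. The untreated groups overlapped and the treated ones did not. Within the untreated cultures each mouse had more Vdr message in its HFSCs than in its progenitors, and the log2 difference of 0.67 (0.68 without the treated HFSC libraries) is given without a test because its untreated values were known when the genes were chosen. In treated cultures the difference was 0.72 (SE 0.29, edgeR adjusted P = 0.387). Vdr was the receptor with the widest spread, with a coefficient of variation of 35.3%, above that of 95.3% of genes. Replicate 2 was higher than replicate 1 by 1.45, 1.73 and 1.25 times in the 3 groups other than treated HFSCs, and 0.697 times as high in treated HFSCs, the group whose libraries ran against their numbers. With N1-AcSpd the log2 difference was -0.23 (SE 0.29) in progenitors and -0.18 (SE 0.28) in HFSCs, and neither passed (edgeR adjusted P = 0.896 and 0.935). The progenitor value was also -0.23 without the treated HFSC libraries (0.884).

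Crabp2 had the widest range of the 7 genes, 11.6-fold from its lowest to its highest RNA-seq library. Its product carries retinoic acid from the cytosol to the retinoic acid receptors in the nucleus. The message (ENSMUST00000005019, chr3:87948666-87953376, plus strand, 4 exons) stood at 5.57 and 3.66 CPM in untreated progenitors and at 1.77 and 1.93 in untreated HFSCs. In treated progenitors it stood at 20.5 and 13.7 CPM, and in treated HFSCs at 2.96 and 5.37. Treated progenitors were above every other library, untreated HFSCs were below every other library, and the untreated progenitors and treated HFSCs overlapped. Averaged over treatment, Crabp2 was 3.19-fold lower in HFSCs (log2 -1.67, SE 0.24, 95% interval -2.23 to -1.12, edgeR adjusted P = 0.00942, and 0.0255 with the mouse as a block). Without each of the 8 libraries in turn the log2 value ran from -1.91 to -1.50. Untreated libraries, whose readouts were involved in choosing the genes, enter this average, so the call is a description.

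Within treated cultures Crabp2 was 4.08-fold lower in HFSCs (log2 -2.03, SE 0.33, edgeR adjusted P = 0.0392). That call did not hold with the mouse as a block (adjusted P = 0.0891) or with counts summed over transcripts (0.0637). It was also lost without untreated HFSC replicate 1 (0.0613) or 2 (0.0576), treated progenitor replicate 1 (0.232) or 2 (0.0550), or treated HFSC replicate 1 (0.208) or 2 (0.0587), while the sign stayed negative in each. Within untreated cultures the difference was -1.32 (SE 0.36), and -1.30 when the treated HFSC libraries were left out of the fit. These values are given without a test, as untreated readouts were involved in choosing the genes.

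With N1-AcSpd, Crabp2 had a log2 difference of 1.89 (SE 0.33) in progenitors, that is 3.71-fold, with an edgeR adjusted P of 0.0735, and both treated libraries were above both untreated ones. DESeq2 put the adjusted P at 2.39e-05, edgeR without a count minimum at 0.00967, and edgeR without the treated HFSC libraries at 0.0578. The adjusted P over all alternatives ran from 2.39e-05 to 0.379. In HFSCs the difference was 1.18 (SE 0.35, edgeR adjusted P = 0.442), and again both treated libraries were above both untreated ones. The difference between these effects was -0.71 (SE 0.48, adjusted P = 1.00), so the response was not shown to differ between the cell types.

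The keratinocyte differentiation markers Krt1, Krt10 and Ivl moved with Crabp2 across the 4 groups, whereas the marker Lor did so only in part. Lor was highest in treated progenitors. Between HFSCs and progenitors in untreated cultures its log2 difference was 0.09, where Crabp2 had -1.32. With N1-AcSpd in HFSCs the Lor difference was -0.38, where Crabp2 had 1.18. The 4 markers Krt1, Krt10, Ivl and Lor summed to 49.9–62.7 CPM in untreated progenitors, 27.6 in both untreated HFSC libraries, 137–213 in treated progenitors and 49.2–69.7 in treated HFSCs. Averaged over treatment 3 of the 4 passed as lower in HFSCs: Ivl, the cornified envelope protein involucrin, at -0.71 (SE 0.07, edgeR adjusted P = 0.00246), Krt1 at -1.75 (SE 0.26, 0.0102) and Krt10 at -1.87 (SE 0.34, 0.0206). The Krt10 call was lost without untreated progenitor replicate 1 (0.0732), untreated HFSC replicate 1 (0.0595) or 2 (0.0788), or treated progenitor replicate 1 (0.0503). Ivl also rose with N1-AcSpd in progenitors by 1.38 on the log2 scale (SE 0.10, edgeR adjusted P = 0.00542), and by 1.39 without the treated HFSC libraries (0.0253). That call was lost without untreated progenitor replicate 1 (0.190) or 2 (0.0854). HFSC markers ran the other way in sum, with Krt15, Lhx2, Sox9 and Nfatc1 summing to 380–420, 1010–1161, 256–279 and 560–681 CPM in the same order of groups. Krt15 was the most abundant of these and had log2 differences with N1-AcSpd of -0.84 in progenitors and -1.14 in HFSCs. Those of Sox9 were -0.51 and -0.37, of Nfatc1 -0.11 and -0.14, and of Lhx2 0.14 and -0.38. In bulk samples, fewer cells of a type and less RNA per cell cannot be told apart, and the part of differentiated cells in the Crabp2 result was not tested.

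**Figure D2:**
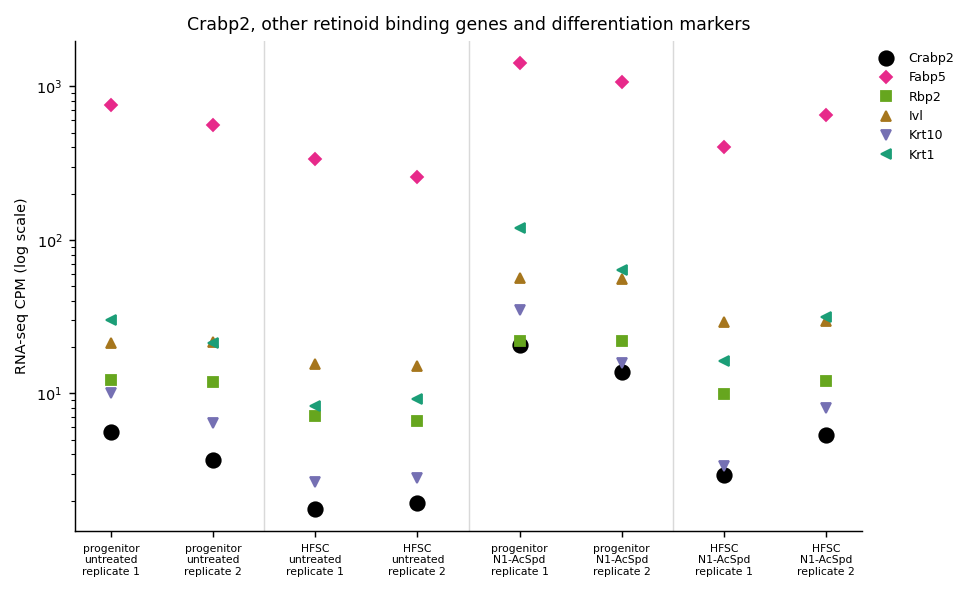
RNA-seq CPM (vertical axis, log scale) of Crabp2, of the binding protein genes Fabp5 and Rbp2 and of the differentiation markers Ivl, Krt10 and Krt1 in each of the 8 RNA-seq libraries (horizontal axis), with 1 symbol per gene. The 6 genes are higher in treated progenitors than in untreated HFSCs, where Crabp2 has 1.77 and 1.93 CPM.

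Dhrs3 went the other way from Crabp2 between the cell types. The message of this retinaldehyde reductase (ENSMUST00000154208, chr4:144893077-144928209, plus strand, 6 exons) was at 5.69 and 5.89 CPM in untreated progenitors and at 9.51 and 13.2 in untreated HFSCs. Treated progenitors had 4.97 and 5.55 CPM and treated HFSCs 8.04 and 8.38. All 4 HFSC libraries were above all 4 progenitor libraries, which held for 1 of the 7 genes and, in either direction, for 9.52% of all genes. Averaged over treatment, Dhrs3 was 1.75-fold higher in HFSCs (log2 0.80, SE 0.14, edgeR adjusted P = 0.0193, and 0.0280 with the mouse as a block). This call too is a description, since untreated libraries enter the average. The call was lost without untreated progenitor replicate 1 (0.0858) or 2 (0.0567), untreated HFSC replicate 2 (0.0604), treated progenitor replicate 1 (0.0703), or treated HFSC replicate 1 (0.0554) or 2 (0.0506), with log2 values of 0.68 to 0.83 in these fits.

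In treated cultures alone, Dhrs3 differed between HFSCs and progenitors by 0.64 (SE 0.20, edgeR adjusted P = 0.254). Without the treated HFSC libraries the untreated value was 0.98 (0.149). With N1-AcSpd, Dhrs3 differed by -0.14 (SE 0.20, edgeR adjusted P = 0.918) in progenitors (-0.13 without the treated HFSC libraries, 0.927). In HFSCs it differed by -0.46 (SE 0.19, 0.625). Treated libraries were below untreated ones in both cell types. The ratio of Crabp2 to Dhrs3 per kilobase ran from 0.368 in an untreated HFSC library to 10.4 in a treated progenitor library, with a median of 1.58.

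Across the 7 genes, 2 passed the edgeR adjusted P of 0.05 between cell types averaged over treatment (Crabp2 lower, Dhrs3 higher), where 3.91% of all genes passed. Vdr, with an edgeR adjusted P of 0.106, also passed there by DESeq2 (0.00478), making 3 of 7, where DESeq2 passed 951 of 14224 genes. It passed too by edgeR without a count minimum (0.0326), where 869 genes passed. Untreated libraries, whose readouts were involved in choosing the genes, enter the averaged comparison, so its count for the 7 genes is a description. In treated cultures 1 of 7 passed (Crabp2), against 0.745% of all genes. None passed by edgeR in untreated cultures (0.148% of all genes), with N1-AcSpd in progenitors (0.239%), with N1-AcSpd in HFSCs (0%) or in the interaction of cell type and N1-AcSpd (0%). At an unadjusted P of 0.05 the counts in those 4 comparisons were 3, 1, 2 and 0 of 7 (9.58%, 8.87%, 7.73% and 0.83% of all genes). The 3 in untreated cultures, Crabp2, Dhrs3 and Vdr, are a description. By DESeq2, 2, 1, 0 and 0 of 7 passed the adjusted P, where 268, 172, 126 and 0 of 14224 genes did. Counting groups that did not overlap, 5 of 7 genes were separated between cell types in untreated cultures (40.7% of all genes), 4 of 7 in treated cultures (39.1%), 3 of 7 with N1-AcSpd in progenitors (38.8%) and 3 of 7 in HFSCs (33.9%), so separation of 2 against 2 libraries was common among all genes. With 2 libraries a group, an exact permutation test of 1 gene alone cannot go below P = 0.333.

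**Figure D3:**
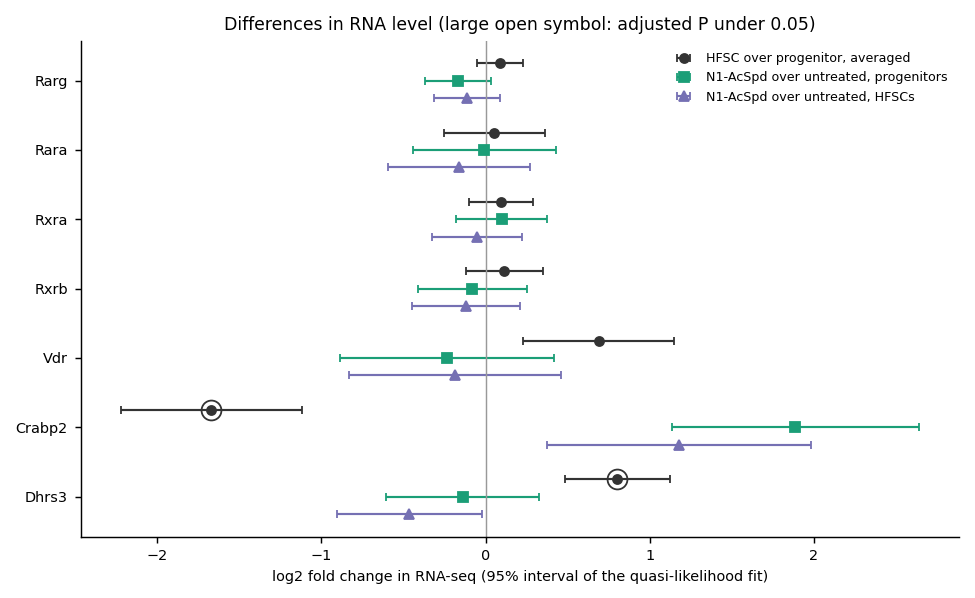
Log2 fold change in RNA-seq (horizontal axis) with the 95% interval of the quasi-likelihood fit for each of the 7 genes (vertical axis) in HFSCs over progenitors averaged over treatment, and in N1-AcSpd over untreated for each cell type; an open ring marks an adjusted P below 0.05. The rings lie on Crabp2 at -1.67 and Dhrs3 at 0.80, and the 4 retinoid receptor genes lie close to 0.

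Other genes of the pathway were read in 6 lists of 69 genes, of which 56 were tested in RNA-seq. Averaged over treatment 2 passed as higher in HFSCs and 2 as lower, beside 3.91% of all genes in either direction, with a median log2 difference of 0.02 against -0.01 for all genes. Both lower genes were binding proteins. Fabp5, which binds fatty acids and also retinoic acid, had 760 and 559 CPM in untreated progenitors, 337 and 258 in untreated HFSCs, 1420 and 1075 in treated progenitors and 402 and 647 in treated HFSCs (log2 -1.20, SE 0.18, edgeR adjusted P = 0.0110). Rbp2, a cellular retinol binding protein, had 12.3 and 11.8, 7.15 and 6.62, 21.8 and 22.1, and 9.91 and 12.1 CPM in the same order (log2 -0.90, SE 0.11, edgeR adjusted P = 0.00502). Among the 5 tested genes of retinoid uptake and binding, all 5 had positive log2 differences with N1-AcSpd in progenitors, with a median of 0.92 against -0.01 for all genes, and none passed by edgeR, with 2 of 5 at an unadjusted P of 0.05.

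In the list of retinoid metabolism, none of 17 tested genes passed in any RNA-seq comparison, and 7 had an unadjusted P below 0.05 between cell types averaged over treatment, as did 18.1% of all genes. Adh7 (75.3 CPM) and Rdh11 (48.0 CPM), which act on retinol and retinaldehyde, and Dhrs4 (29.0 CPM) were the most abundant. In vitamin D metabolism and transport none of 5 passed, with 1 at an unadjusted P of 0.05 averaged over treatment (18.1% of all genes). There the sterol hydroxylase Cyp27a1 averaged 57.6 CPM and the cholesterol synthesis enzyme Dhcr7 50.2 CPM, whereas Cyp27b1, which makes the active hormone, averaged 1.01 CPM. Cyp24a1 and Cyp26a1, the enzymes that break down the active forms of vitamin D and of retinoic acid and that are textbook targets of the receptors, had 0 counts in every library, which allows 0.0933 to 0.145 CPM per RNA-seq library. The retinoic acid hydroxylase Cyp26b1 averaged 14.9 CPM.

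None of 9 tested nuclear receptors outside the 7 passed, with Ppard (127 CPM), Nr1h2 (78.3 CPM) and Thra (48.3 CPM) the most abundant. Likewise none of 14 coregulators passed: Hr, the hairless corepressor that binds the vitamin D receptor, averaged 1049 CPM and Cnot1 272 CPM. In the list of targets 2 of 11 tested genes passed as higher in HFSCs averaged over treatment (3.91% of all genes in either direction). Trpv6, a calcium channel under vitamin D control in other tissues, was higher by 1.07 (SE 0.18, edgeR adjusted P = 0.0179), a call lost without untreated progenitor replicate 1 (0.0641), untreated HFSC replicate 2 (0.0623), treated progenitor replicate 1 (0.0668) or treated HFSC replicate 1 (0.0637). Krt15, which is also an HFSC marker, was higher by 1.86 (SE 0.08, edgeR adjusted P = 8.11e-05). With N1-AcSpd in progenitors Krt15 was lower (log2 -0.84, SE 0.12, edgeR adjusted P = 0.0428), a call that was lost without each single library (0.0528 to 0.304), without both treated HFSC libraries (0.0506) and with the mouse as a block (0.0759).

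Footprints were few for 6 of the 7 genes. Summed over the 8 Ribo-seq libraries there were 209 on Vdr, 66 on Rarg, 39 on Rxra, 20 each on Rxrb and Dhrs3, 17 on Rara and 13 on Crabp2. To relate them to the message, footprints per kilobase of coding sequence were divided by RNA-seq counts per kilobase of transcript, both as shares of their assay, in pooled libraries. Vdr had a ratio of 8.30 (95% Poisson interval 7.21 to 9.50), higher than 90.7% of 8427 genes, whose median was 2.28. Dhrs3 stood at 7.97 (4.87 to 12.3) and Crabp2 at 5.55 (2.95 to 9.49), both on few footprints.

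The other receptors lay lower, with Rara at 2.62 (1.52 to 4.19), Rxra at 1.25 (0.888 to 1.71), Rarg at 1.09 (0.839 to 1.38) and Rxrb at 0.917 (0.560 to 1.42). Rarg, the most abundant of the kept messages, had a ratio above that of 20.8% of genes. The Vdr ratio exceeded that of Rarg, Rara, Rxra and Rxrb in 8 of 8 libraries, by 7.64, 3.17, 6.64 and 9.05 times in the pool. The ratios take all footprints as lying on coding sequence, and the choice of transcript enters them. Of the 28-base windows in coding sequence, Rxra and Rxrb shared 2 with each other and the other 5 genes shared none with another gene.

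**Figure D4:**
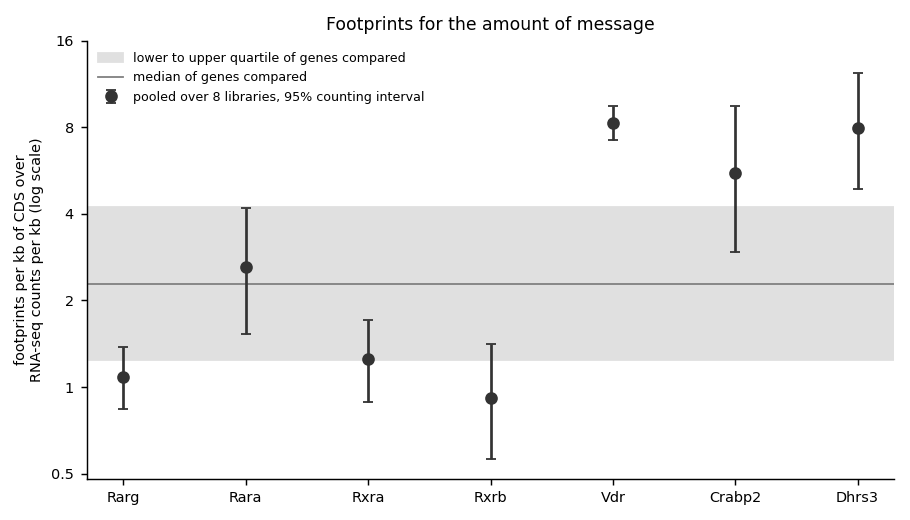
Footprints per kilobase of coding sequence over RNA-seq counts per kilobase of transcript (vertical axis, log scale), pooled over 8 libraries, for each of the 7 genes (horizontal axis), with 95% counting intervals; the line and band give the median and the lower to upper quartile of 8427 genes. Vdr at 8.30 and Dhrs3 at 7.97 lie above the band, and Rxrb at 0.917 and Rarg at 1.09 lie below it.

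By library, Vdr had 7 and 60 footprints in untreated progenitors (175 and 241 CPM), 20 and 44 in untreated HFSCs (349 and 348 CPM), 16 and 8 in treated progenitors (198 and 131 CPM) and 31 and 23 in treated HFSCs (215 and 382 CPM). HFSCs were above progenitors under each condition. Averaged over treatment the log2 difference in footprints was 0.72 (SE 0.37, edgeR adjusted P = 1.00), close in size to the 0.69 (SE 0.20) of its RNA. In treated HFSCs replicate 1 had 143 CPM of Vdr message and 215 of footprints, replicate 2 had 99.5 and 382, and the ratio ran from 5.19 to 13.2. These pairs rest on the replicate numbers, which the RNA-seq libraries of this group ran against, and exchanging the numbers would set the higher message beside the higher footprints. The difference in translational efficiency between the cell types, the change in footprints beyond that in RNA, was -0.08 (SE 0.51) in untreated and -0.04 (SE 0.60, edgeR adjusted P = 1.00) in treated cultures.

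Rarg had 2 and 8 footprints in untreated progenitors (50.0 and 32.2 CPM) and 8 and 22 in untreated HFSCs (139 and 174 CPM). In treated cultures it had 4 and 7 in progenitors (49.4 and 115 CPM) and 11 and 4 in HFSCs (76.4 and 66.4 CPM). Untreated HFSCs stood above every other library. The ratio per message was 0.652 and 0.429 in untreated progenitors, 1.77 and 2.20 in untreated HFSCs, 0.731 and 1.70 in treated progenitors and 1.04 and 0.912 in treated HFSCs. As the untreated comparison of translation was used in choosing the genes, its log2 difference in translational efficiency of 2.13 (SE 0.51) is a description, and it was 1.62 without untreated progenitor replicate 2. In treated cultures the value was -0.22 (SE 0.58, edgeR adjusted P = 0.973), and the difference between the treated and the untreated value was not tested.

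**Figure D5:**
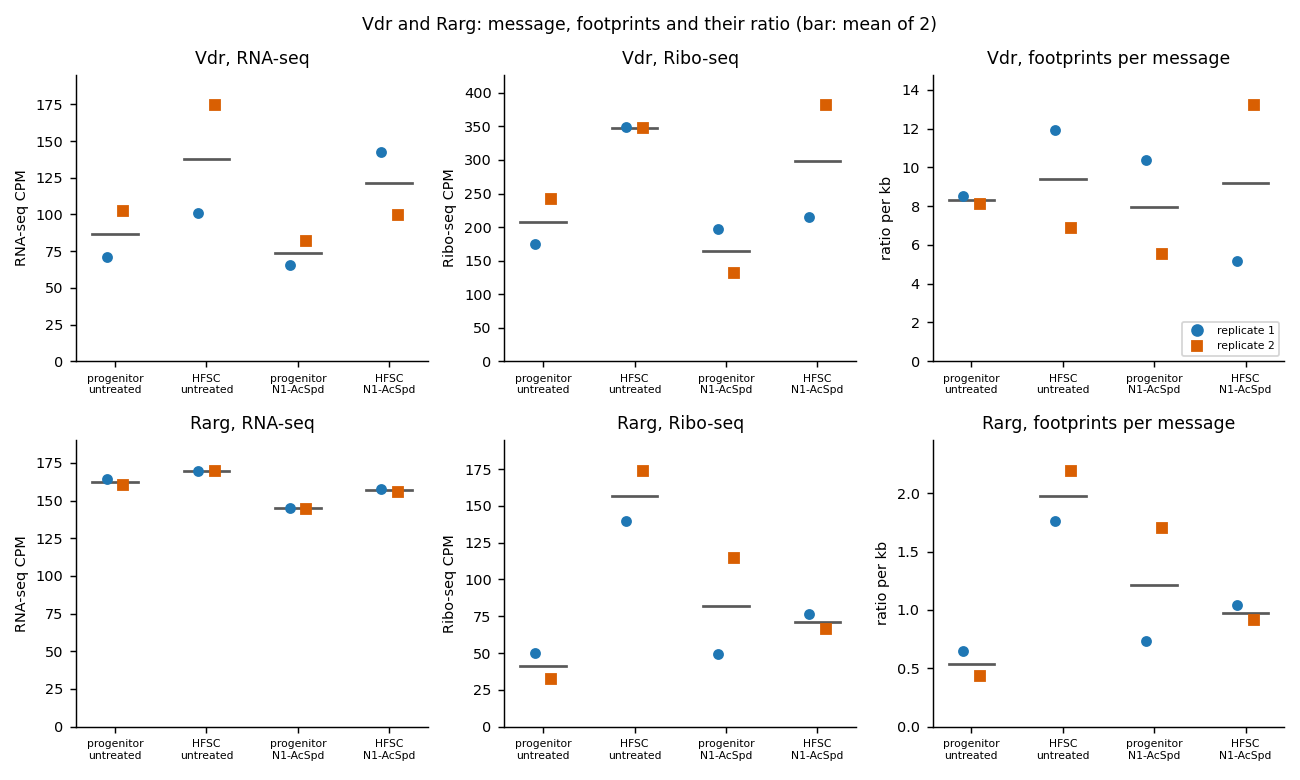
RNA-seq CPM, Ribo-seq CPM and footprints per message (vertical axes, from 0; left to right) of Vdr (top) and Rarg (bottom) in the 4 groups (horizontal axes), with circles for replicate 1, squares for replicate 2 and a bar for the mean of the 2. Rarg message is level while its footprints are highest in untreated HFSCs, at 139 and 174 CPM.

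Rxra had footprints in all 8 libraries and the other genes in 4 to 6, listed here in the order untreated progenitors, untreated HFSCs, treated progenitors and treated HFSCs. Rxra had 3 and 9, 3 and 6, 5 and 3, and 5 and 5. Rxrb had 0 and 10, 0 and 5, 0 and 2, and 3 and 0, and Rara had 2 and 9, 0 and 4, 0 and 2, and 0 and 0. The 0 of Rara in treated HFSCs allows up to 14.7 CPM over that group, against 38.1 CPM in pooled untreated progenitors, and no fold is given. Rara would not have reached the required 10 without the 11 in untreated progenitors, so this contrast is a description. Crabp2 had 0 and 4, 0 and 0, 2 and 5, and 2 and 0, and its 0 in untreated HFSCs allows up to 16.3 CPM. Its 7 footprints in treated progenitors were the most of any group. Without them Crabp2 would not have reached the required 10, so they are no support for its RNA-seq pattern. Dhrs3 had 1 and 2, 0 and 10, 0 and 2, and 2 and 3.

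None of the 7 genes passed by edgeR in footprints between cell types, where 0.154% of 8440 genes did, or with N1-AcSpd, where 0.0829% did. At an unadjusted P of 0.05 the count was 0 in both (4.14% and 4.85% of all genes), as it was for adjusted P by DESeq2. Footprint levels did not overlap between cell types for 3 of 7 genes in untreated cultures (29.1% of all genes) and for 2 of 7 in treated ones (32.3%). With N1-AcSpd they were separated for 2 of 7 in progenitors (29.3%) and 1 of 7 in HFSCs (32.3%), and over 4 against 4 libraries for 0 of 7 between cell types (2.71%) and 0 of 7 with N1-AcSpd (3.03%). For translational efficiency no gene of 8439 passed an adjusted P of 0.05 in any of 4 comparisons by edgeR, and DESeq2 passed 1 gene, none of the 7, with N1-AcSpd. At the study's unadjusted P of 0.05, 1 of 7 (Rarg) passed between cell types in untreated cultures (5.5% of all genes), the comparison used in choosing the genes. In treated cultures 0 of 7 passed (6.08%). Averaged over treatment 1 of 7 (Rarg) passed (6.01%). That average holds the untreated value of 2.13 beside the treated one of -0.22, so this pass is a description too. With N1-AcSpd 1 of 7 (Rara, on groups with 0 footprints) passed (7.35%). DESeq2 likewise passed 1, 0, 1 and 1 of 7 at the unadjusted P and 0 of 7 at the adjusted one.

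The genes whose RNA-seq pattern over the 8 libraries was most like each member were named by Pearson's r of log2(CPM + 1) among 10176 genes with at least 100 counts on average. These r are descriptions, since libraries of one mouse and one culture share their source. Crabp2 was followed most closely by Ly6g6c (0.995), Lypd5 (0.994) and Il1f5 (0.992). Vdr was followed by Inhbb (0.996), Palmd (0.994) and Hoxb3 (0.992), and Dhrs3 by Gstm2 (0.983), Ank3 (0.983) and Gmds (0.982). For Rarg these were Cryz (0.988), Man2a2 (0.985) and Slc26a2 (0.983), and for Rara they were Ldlrad3 (0.968), Hsdl1 (0.954) and Acyp1 (0.945). Rxrb came with Bicral (0.963), Enox2 (0.957) and Pyroxd1 (0.950), and Rxra, with the lowest values, with Pja1 (0.926), Gm20683 (0.925) and Klhl36 (0.910).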

How the data were processed

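RNA-seq (ribosomal RNA depleted) and Ribo-seq were made from 16 libraries, 2 in each of 8 groups of cell type, N1-AcSpd and assay. The authors removed rRNA and tRNA reads (Bowtie 1.2.3), aligned to mm10 with STAR 2.7.3a and deposited counts per transcript with GRCm38.p5 and featureCounts named in the submitters' processing notes; which part of a transcript was counted, and how multiply matching reads were treated, is not given in the sources used here. The deposited tables of the authors' own comparisons, which hold fold changes and P values, were not used beyond the names. From the deposited counts 1 transcript per gene was kept, the one with the most footprints. Testing used edgeR 4.0.16 in R 4.3.3 (quasi-likelihood, TMM, groups only, Benjamini-Hochberg over all genes) wherever a gene averaged 1 count or more per library: 14224 in RNA-seq, 8440 in Ribo-seq and 8439 for translational efficiency, which is the interaction of assay and group over all 16 libraries. Riborex, which the study used, was replaced by this model of the same kind. DESeq2 1.42.0, other size factors, other count minimums, sums over transcripts, a replicate block and leaving out each library were alternatives. The fits were also run on simulated counts of independent libraries without a mouse effect. That run does not show how they behave with mice shared by all groups or with few footprints. Lengths came from GENCODE vM21, to which 63760 of 64026 transcripts matched, and promoters from RefSeq.

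Replicate numbers 1 and 2 each mark 1 mouse in all groups, which pairs the samples by design; replicate differences correlated across groups at 0.0214 to 0.113 in Ribo-seq and as given beside the depths in RNA-seq. The main fits hold no mouse term, so their p-values rest on the spread between the 2 libraries of each group, 1 from each mouse. The same 2 mice enter every group, yet these fits treat the libraries as independent. The quasi-likelihood fit also draws the spread of each gene towards that of other genes. The p-values are therefore not a measure of the spread between mice for a single gene. The 7 genes and the gene lists were chosen with earlier results of these data known. Named genes were the 7, list genes past an adjusted P of 0.05 in any RNA-seq comparison, the 3 most abundant per list, and for each member the 3 genes most alike; some genes that this rule names are not reported here, and genes at or near 0 counts were named after their values were seen.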

Additional observations from a re-analysis of the deposited data

How the results depend on the processing

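Replicate numbers mark the mouse, so a replicate block was fitted. It passed 3 genes between cell types in untreated cultures and 44 in treated ones, 7 with N1-AcSpd in progenitors and 4 in footprints with N1-AcSpd, and left 0 of the 7 genes passing between cell types in treated cultures; it changed no other adjusted call on them, while at an unadjusted P of 0.05 their count went from 0 to 1 in footprints between cell types and from 1 to 0 in translational efficiency with N1-AcSpd. With the treated HFSC RNA-seq numbers exchanged, a choice made after seeing the data, the block passed 752, 903, 441, 269 and 1950 genes in RNA-seq between cell types untreated, between them treated, with N1-AcSpd in progenitors, with it in HFSCs, and between cell types averaged, then 4 in footprints and 3 in translational efficiency with N1-AcSpd; of the 7 genes it passed 3, 2, 1, 1 and 3 in the same order. DESeq2 passed 268, 376, 172, 126 and 951 in those 5 RNA-seq comparisons, 7 and 0 in footprints between cell types and with N1-AcSpd, and 1 in translational efficiency with N1-AcSpd, including of the 7 genes 2 untreated, 1 treated, 1 with N1-AcSpd in progenitors and 3 averaged. Without a count minimum the RNA-seq counts were 167, 262, 111, 43 and 869, with 1 of the 7 genes untreated and 1 with N1-AcSpd in progenitors, and footprints with N1-AcSpd gave 3. A mean of at least 10 counts gave 20 with N1-AcSpd in progenitors and, in footprints, 8 between cell types and 2 with N1-AcSpd, where only Vdr of the 7 could be fitted. Other size factors gave 12 in footprints with N1-AcSpd. Sums over transcripts passed 70 between cell types in treated cultures with 0 of the 7, 1 with N1-AcSpd in progenitors, 1 and 0 in footprints, and in translational efficiency 1 between cell types treated and 3 with N1-AcSpd. Without both treated HFSC RNA-seq libraries, also added later, 15 passed with N1-AcSpd in progenitors. The log2 difference of Rara there, -0.01, became 0.00973 by DESeq2, 0.00971 with other size factors, 0.00722 without a minimum and 0.00189 without those libraries. Leaving out single libraries gave 1 to 21, 2 to 89, 0 to 21, 0 to 4 and 188 to 457 genes in the 5 RNA-seq comparisons, 2 to 23 and 2 to 19 in footprints, and 0 to 4 in translational efficiency with N1-AcSpd; of the 7 genes, 0 to 1 passed between cell types treated and 1 to 3 averaged. Signs turned there for small differences: between cell types for Rara untreated (-0.072 to 0.31), treated (-0.22 to 0.21) and averaged (-0.048 to 0.18), Rxra treated (-0.088 to 0.15) and Rxrb treated (-0.080 to 0.31); with N1-AcSpd in progenitors for Rara (-0.22 to 0.19), Rxra (-0.031 to 0.23), Rxrb (-0.27 to 0.10) and Vdr (-0.48 to 0.074), and in HFSCs for Rara (-0.33 to 0.041), Rxra (-0.12 to 0.049), Rxrb (-0.21 to 0.00612) and Vdr (-0.50 to 0.26); and for the translational efficiency of Rarg treated (-0.74 to 0.47). Of 960 log2 values under an alternative, 855 kept direction and side of the threshold, 62 lost a call, 15 gained one and 28 turned sign. The cause was not tested. With 13 to 66 footprints on 6 of the 7 genes, depth limits what Ribo-seq can show.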
